A study of Mus musculus with 6 samples.

Results

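The genes described here encode matrix proteoglycans and a partner that anchors them. They are the small leucine-rich proteoglycan genes *Dcn*, *Lum*, *Bgn*, *Fmod*, *Ogn*, *Prelp*, *Aspn* and *Podn*, the large hyaluronan-binding proteoglycan gene *Vcan* and the link protein gene *Hapln1*. They were taken by symbol and are 10 of the 24972 genes in the deposited table. The RNA-Seq compared lung endothelial cell isolates (iLECs) from mice at postnatal day 7 (P7), with 3 control and 3 *Atp6ap2* iECKO samples and 1 library for each sample. The controls carried the floxed X-linked *Atp6ap2* allele, labelled fl/Y, without Cre. The *Atp6ap2* iECKO samples carried the same allele together with Cdh5-CreERT2, which expresses a Cre that tamoxifen activates, under the endothelial *Cdh5* promoter. Pups received 100 µg tamoxifen on P1 to P3, controls included. The labels give the strain as C57BL/6, and the methods describe a mixed CD1 and C57BL/6 background. Cells were pulled from digested lungs with beads coated with antibody to CD31, a surface protein of endothelial cells. Other cells of the lung can be carried along in this step. The paper reports a purity check of iLECs by immunoblot. There VE-cadherin, the product of *Cdh5*, was seen in iLECs only, and αSMA and desmin, proteins of muscle cells and pericytes, in the non-endothelial fraction.

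Small leucine-rich proteoglycans are secreted proteins whose core is a curved stack of leucine-rich repeats, and several of them carry chondroitin, dermatan or keratan sulfate chains. They bind collagen fibrils, whose width and spacing they control, and several also bind growth factors such as TGF-β. Versican is a large chondroitin sulfate proteoglycan that binds hyaluronan through its amino-terminal domain, and link proteins lock this contact in the hydrated matrix around cells. In the lung these proteins are known mainly as products of fibroblasts, smooth muscle cells and pericytes.

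The targeted gene and the labels were checked first. *Atp6ap2* had normalized counts of 7490, 5815 and 5681 in the control libraries and of 4220, 2336 and 1982 in the *Atp6ap2* iECKO libraries, a log2 fold change of -1.22 (standard error 0.26, limma adjusted *P* = 0.0306). *Xist*, the RNA that coats the silenced X chromosome of females, was between 37704 and 47487 in 4 libraries while control replicate 3 had 31.7 and *Atp6ap2* iECKO replicate 2 had 19.3, although every label gives an fl/Y genotype and the methods state that neonates of both sexes were used in the study. Results are therefore also given for the 4 libraries with high *Xist*. The endothelial markers *Pecam1* and *Cdh5* were high in every library, from 48730 to 57759 and from 76599 to 110813. Totals per library were between 26243878 and 28725799 normalized counts. Because scaled estimated counts were deposited, read numbers are unknown. The step between the lowest values put the relative depth at 1.00 to 1.03 in the control libraries and at 1.26 to 1.56 in the *Atp6ap2* iECKO libraries.

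Of the 10 genes, 9 passed a filter of at least 10 normalized counts in at least 3 libraries. At an adjusted *P* value below 0.05, 6 of the 9 fell after *Atp6ap2* loss. The test was limma on log2-transformed values with a pseudocount of 1, adjusted over 14456 genes by Benjamini-Hochberg. They were *Bgn*, *Ogn*, *Aspn*, *Fmod*, *Prelp* and *Vcan*, and 0 genes were called higher. Of all genes tested, 8.25% were called in either direction and 4.97% were called lower. The ranges of the groups did not overlap for any of the 6, as for 29.8% of all genes tested in either direction and 15% in the lower direction. The means of the 6 genes in *Atp6ap2* iECKO iLECs were between 35.4% and 51.1% of the control means. *Dcn*, *Podn* and *Hapln1* were tested and not called, and *Lum* did not pass the filter. The median log2 fold change over the 9 genes was -1.02, against 0.00488 over all genes tested. In bulk samples, fewer cells of a type cannot be told apart from less RNA in each cell. The count of 6 depended on single libraries. It was 3 without control replicate 3, 3 without *Atp6ap2* iECKO replicate 2 and 2 without *Atp6ap2* iECKO replicate 3, fits in which the calls over all genes fell from 1193 to 270, 250 and 206.

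**Figure D1:**
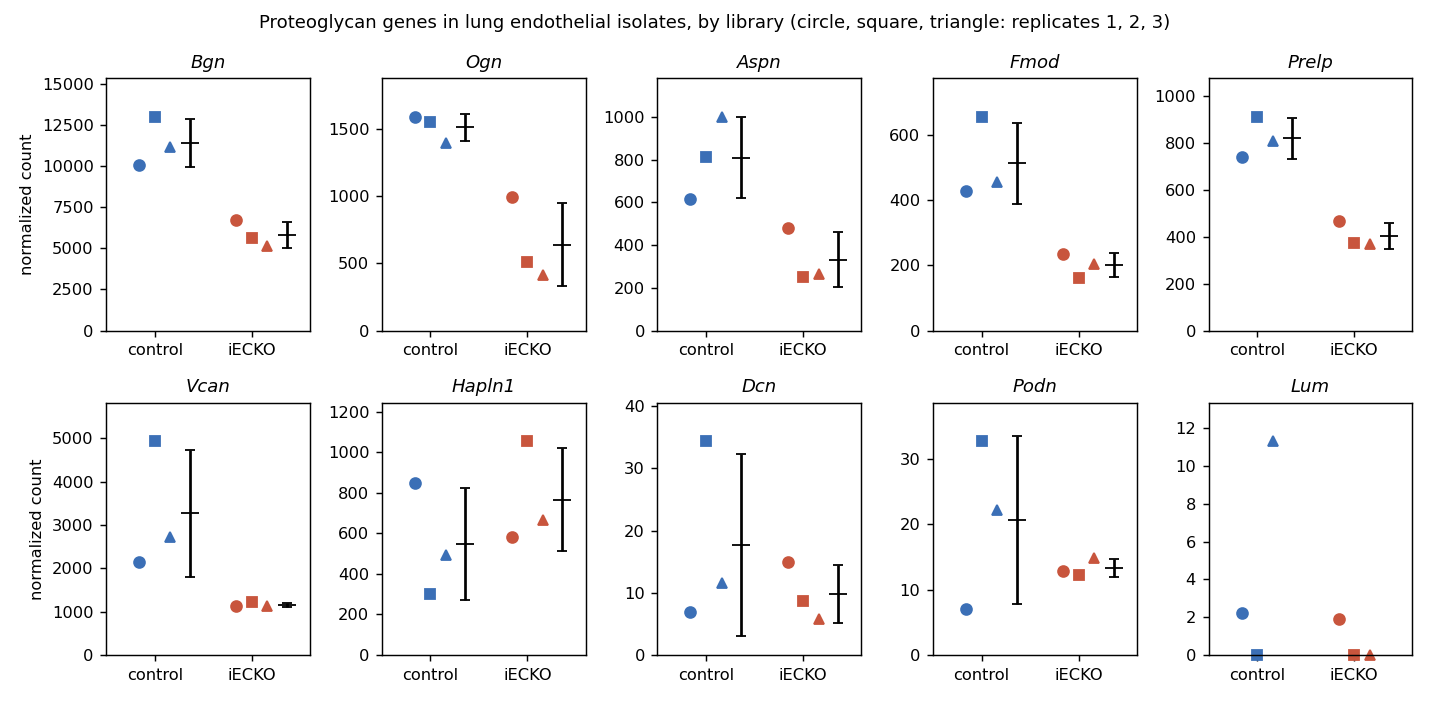
Normalized count (vertical axes, linear, each from 0) of the 10 genes in the 3 control (blue) and 3 *Atp6ap2* iECKO (red) libraries, where the black bars are the mean ± SD (n = 3) and are left out for *Lum*, which is listed at 0 in 3 libraries. Each *Atp6ap2* iECKO library lies below each control library for *Bgn*, *Ogn*, *Aspn*, *Fmod*, *Prelp* and *Vcan*, and the groups overlap for the other 4 genes.

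*Bgn* encodes biglycan, which binds collagen and TGF-β and carries chondroitin or dermatan sulfate chains. Its locus is chromosome X, 73483602 to 73495933, plus strand (GRCm38, as for the other genes). Control replicates 1 to 3 had 10086, 12981 and 11169 normalized counts, and *Atp6ap2* iECKO replicates 1 to 3 had 6700, 5619 and 5167. The groups were well apart, and replicate 1 was the highest of the *Atp6ap2* iECKO libraries. *Bgn* fell from 11412 ± 1463 to 5829 ± 788 (SD, n = 3 each), a log2 fold change of -0.97 (standard error 0.13, limma adjusted *P* = 0.0103). It remained below the threshold with any 1 of the 6 libraries left out, with log2 fold changes from -1.07 to -0.87.

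*Aspn* encodes asporin, a close relative of biglycan that also binds collagen and TGF-β. The gene lies on chromosome 13 from 49544443 to 49567565. It had normalized counts of 617, 812 and 1000.1 in the control libraries and of 482, 250.1 and 264 in the *Atp6ap2* iECKO libraries. The groups did not overlap, but *Atp6ap2* iECKO replicate 1 lay closer to control replicate 1 than to the other libraries of its own group. The log2 fold change of *Aspn* was -1.32 (standard error 0.28, limma adjusted *P* = 0.0292). Leaving out control replicate 2 or 3 or *Atp6ap2* iECKO replicate 2 or 3 raised its adjusted *P* value above 0.05, to at most 0.107, with log2 fold changes from -1.63 to -1.15 over the 6 fits that each left out a library.

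*Fmod* and *Prelp* encode fibromodulin and prolargin, which bind collagen fibrils, and prolargin also binds heparan sulfate through a basic stretch at its amino terminus. Both genes lie on chromosome 1, *Prelp* from 133910304 to 133921414 and *Fmod* from 134037254 to 134048277. *Fmod* had normalized counts of 426, 654 and 456 in the control libraries and of 235, 161 and 204 in the *Atp6ap2* iECKO libraries. *Prelp* had 737, 909.9 and 808 in the control libraries and 468, 373 and 367 in the *Atp6ap2* iECKO libraries. For both genes control replicate 2 was the highest library, and the groups did not overlap. The log2 fold change was -1.34 for *Fmod* (standard error 0.21, limma adjusted *P* = 0.0138) and -1.02 for *Prelp* (standard error 0.14, limma adjusted *P* = 0.0103). *Prelp* remained below the threshold in all 6 fits that left out a library, and *Fmod* in 5, the exception being the fit without *Atp6ap2* iECKO replicate 3 (limma adjusted *P* = 0.0536). An annotated antisense transcript shares 350 exon bases with *Prelp*, and as the library kit does not mark strand, its reads cannot be told apart from those of *Prelp*.

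*Ogn* encodes osteoglycin, also called mimecan. The gene lies on chromosome 13 from 49608046 to 49624501. It had normalized counts of 1588, 1546 and 1395 in the control libraries and of 989, 512 and 411 in the *Atp6ap2* iECKO libraries. Its control libraries were close together, at 1510 ± 101 (SD, n = 3), while the *Atp6ap2* iECKO libraries spread over more than a factor of 2, at 637 ± 309 (SD, n = 3). The log2 fold change was -1.35 (standard error 0.28, limma adjusted *P* = 0.03). Leaving out *Atp6ap2* iECKO replicate 1, the library with the most *Ogn* and the most *Atp6ap2* of its group, gave a log2 fold change of -1.71 (limma adjusted *P* = 0.00484). Each of the 5 other fits that left out a library had a limma adjusted *P* value above 0.05, the highest being 0.1002.

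*Vcan* encodes versican. The gene lies on chromosome 13 from 89655312 to 89742509. It had normalized counts of 2146, 4933 and 2728 in the control libraries and of 1119, 1217 and 1134 in the *Atp6ap2* iECKO libraries. The *Atp6ap2* iECKO libraries were almost level, whereas control replicate 2 stood well above the other controls. *Vcan* fell from 3269 ± 1470.2 to 1157 ± 52.7 (SD, n = 3 each), a log2 fold change of -1.41 (standard error 0.26, limma adjusted *P* = 0.0215) the largest fall of the 9 tested genes when all libraries were used. The limma adjusted *P* value passed 0.05 when control replicate 3 was left out (0.0644). It did so too when the *Atp6ap2* iECKO library left out was replicate 2 (0.0646) or replicate 3 (0.0802). Without control replicate 2 it was 0.00878, but the log2 fold change was then -1.07, a smaller fall than those of *Ogn* (-1.33), *Aspn* (-1.31) and *Fmod* (-1.15) in the same fit.

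*Hapln1* encodes the link protein that joins versican to hyaluronan. The gene lies on chromosome 13 from 89539796 to 89611652, beside *Vcan*. It had normalized counts of 849, 301 and 495 in the control libraries and of 580, 1055 and 665 in the *Atp6ap2* iECKO libraries, so the groups overlapped. The lowest of all 6 libraries was control replicate 2, which had the most *Vcan*, and the highest was *Atp6ap2* iECKO replicate 2. The log2 fold change was 0.56 with a 95% confidence interval from -0.29 to 1.41 (limma adjusted *P* = 0.409), and it was between 0.19 and 0.94 with each library left out in turn. The interval lies above the estimates of the 6 genes called. The ratio of *Hapln1* to *Vcan* normalized counts was 0.396, 0.0611 and 0.181 in the control libraries and 0.518, 0.867 and 0.586 in the *Atp6ap2* iECKO libraries. The ratio was higher in each *Atp6ap2* iECKO library than in any control (*P* = 0.1 in a two-sided exact permutation test, which cannot go lower with 3 samples a group). This ratio was chosen after the values were seen. *Vcan* alone also separated the groups, so the separation of the ratio does not show a change in *Hapln1*.

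**Figure D2:**
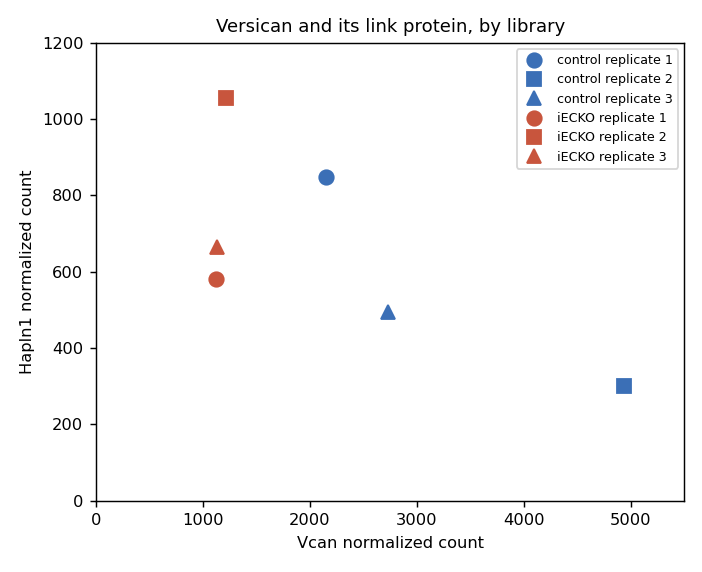
*Hapln1* against *Vcan* normalized count (both axes linear from 0) in the 3 control (blue) and 3 *Atp6ap2* iECKO (red) libraries, 1 point per library. The *Atp6ap2* iECKO libraries share *Vcan* values between 1119 and 1217 and differ in *Hapln1*, from 580 to 1055, and the control libraries run from 849 *Hapln1* with 2146 *Vcan* to 301 *Hapln1* with 4933 *Vcan*.

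*Dcn* and *Lum* encode decorin and lumican, which bind type I collagen fibrils and are widely used as fibroblast markers. Both were near the lower limit of detection in these isolates. *Dcn* had normalized counts of 6.96, 34.4 and 11.6 in the control libraries and of 14.9, 8.74 and 5.71 in the *Atp6ap2* iECKO libraries. *Lum* was listed at 2.24, 0 and 11.3 in the control libraries and at 1.92, 0 and 0 in the *Atp6ap2* iECKO libraries. *Podn*, which encodes podocan, had 7.04, 32.8 and 22.2 in the control libraries and 12.9, 12.2 and 14.9 in the *Atp6ap2* iECKO libraries. The groups overlapped for each of these 3 genes. *Dcn* passed the filter through 2 control libraries and 1 *Atp6ap2* iECKO library, and its log2 fold change of -0.59 had a 95% confidence interval from -2.10 to 0.92 (limma adjusted *P* = 0.642). For *Podn* the log2 fold change was -0.37 with an interval from -1.69 to 0.95 (limma adjusted *P* = 0.754), and it changed sign without control replicate 2. A halving and no change both lie within each interval, so neither was excluded at these levels.

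To compare levels between genes, normalized counts were divided by the annotated exon length. In the control libraries *Bgn* was the highest by this measure, at 1871 ± 239.9 normalized counts per kb (SD, n = 3), followed by *Ogn* at 588 ± 39.5, *Aspn* at 344 ± 81.3, *Prelp* at 226 ± 24.0, *Vcan* at 226 ± 101.7, *Fmod* at 155 ± 37.5 and *Hapln1* at 92.9 ± 47.1. *Podn*, *Dcn* and *Lum* followed with means of 4.84, 3.03 and 1.85 per kb. The ranges over the control libraries overlapped between *Aspn* and *Vcan*, *Prelp* and *Vcan*, *Vcan* and *Fmod*, and *Fmod* and *Hapln1*. They also overlapped between each pair of *Podn*, *Dcn* and *Lum*. The order within those pairs is not settled. In the *Atp6ap2* iECKO libraries *Bgn* was again the highest, at 956 ± 129 per kb (SD, n = 3). There *Hapln1* moved from the 7th to the 4th place, at 129.9 ± 42.9 per kb, where its range overlapped those of *Ogn*, *Aspn* and *Prelp*. As a share of the sum over the 10 genes per kb, *Bgn* took 53.2% ± 0.93 in control and 55.4% ± 2.19 in *Atp6ap2* iECKO libraries, and *Prelp* 6.44% ± 0.04 and 6.47% ± 0.35 (SD, n = 3 each). *Hapln1* went from 2.76% ± 1.65 to 7.74% ± 3.06 (SD, n = 3 each), with a range of 1.30% to 4.55% in control and of 4.74% to 10.9% in *Atp6ap2* iECKO libraries. This share rises for any gene that holds its level while *Bgn*, *Ogn* and *Aspn* fall, and the counts of *Hapln1* themselves overlapped between the groups.

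Most of the genes lie in small clusters with relatives. On chromosome 13, *Ecm2*, *Aspn*, *Omd* and *Ogn* follow each other on the same strand with gaps of 11653, 14896 and 15223 bases. *Ecm2*, which encodes a related leucine-rich matrix protein, fell from 467 ± 48.6 to 259.5 ± 45.3 normalized counts (SD, n = 3 each, log2 fold change -0.85, limma adjusted *P* = 0.0237), while *Omd*, which encodes osteomodulin and lies between *Aspn* and *Ogn*, was at most 6.50 in any library. The ratio of *Ogn* to *Aspn* was between 1.40 and 2.57 in control and between 1.56 and 2.05 in *Atp6ap2* iECKO libraries. On chromosome 10, *Dcn*, *Lum*, *Kera* and *Epyc* form another cluster, of which *Kera* and *Epyc*, known from cornea and cartilage, were listed at 0 in all 6 libraries. On chromosome 1, *Optc* lies 2304 bases from *Prelp* and was at most 8.75 in any library, while *Prelp* and *Fmod* both fell. *Hapln1* and *Vcan* are separated by 43659 bases and lie on opposite strands.

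The promoters of the neighbours *Aspn* and *Ogn* are shown beside those of *Vcan*, the large proteoglycan gene that was called lower, and *Bgn*, the most abundant of the 10 genes, as the 250 bases before the RefSeq start, 5′ to 3′ on the strand of the gene. The build is GRCm38.p6. Capitals mark matches, on either strand, to the letters of a TATA box in *Aspn* and *Ogn* and to those of a GC box in *Vcan* and *Bgn*, with the letters searched given after the sequences.
*Aspn* (chr13:49544193-49544442, plus strand): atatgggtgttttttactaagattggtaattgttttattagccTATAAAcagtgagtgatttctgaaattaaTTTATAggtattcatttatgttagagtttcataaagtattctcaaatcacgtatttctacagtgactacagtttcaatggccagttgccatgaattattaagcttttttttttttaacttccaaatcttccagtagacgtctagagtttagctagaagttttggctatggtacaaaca
*Ogn* (chr13:49607765-49608014, plus strand): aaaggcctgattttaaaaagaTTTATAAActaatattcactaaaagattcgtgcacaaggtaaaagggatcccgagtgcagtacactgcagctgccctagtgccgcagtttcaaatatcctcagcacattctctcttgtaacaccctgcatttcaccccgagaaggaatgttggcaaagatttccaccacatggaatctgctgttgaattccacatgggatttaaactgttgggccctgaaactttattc
*Vcan* (chr13:89742513-89742762, minus strand): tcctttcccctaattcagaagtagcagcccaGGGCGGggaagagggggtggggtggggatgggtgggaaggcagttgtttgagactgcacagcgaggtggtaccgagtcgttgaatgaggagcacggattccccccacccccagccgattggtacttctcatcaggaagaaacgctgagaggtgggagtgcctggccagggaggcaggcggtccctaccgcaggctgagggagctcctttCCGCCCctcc
*Bgn* (chrX:73483351-73483600, plus strand): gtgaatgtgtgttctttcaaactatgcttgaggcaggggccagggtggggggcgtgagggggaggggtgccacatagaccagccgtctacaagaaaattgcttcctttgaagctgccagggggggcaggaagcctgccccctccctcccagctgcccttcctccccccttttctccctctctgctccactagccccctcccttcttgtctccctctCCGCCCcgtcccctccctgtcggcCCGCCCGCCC

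Of the 10 genes, 8 had a promoter in the RefSeq table, not *Dcn* or *Lum*. Matches on both strands were searched for. TATAAA, the letters of a TATA box, was found before *Aspn* and *Ogn* only among these genes, and in 12.4% of all 32851 promoters of that length. The matches begin 207 and 178 bases before the start of *Aspn* and 229 and 227 bases before that of *Ogn*, where they overlap on opposite strands, farther away than the usual place of a TATA box just before the start. GGGCGG, the GC box, was found before *Bgn*, *Vcan* and 1 of the 2 listed starts of *Podn*, and in 32.7% of all promoters. TGANTCA, the AP-1 site, was found before none of the 8 genes, and in 6.75% of all promoters. The GC content of the 250 bases was 30.0% for *Aspn*, 42.0% for *Ogn*, 51.2% for *Fmod*, 54.4% for *Hapln1* (inside its annotated first exon in GENCODE), 55.6% for *Prelp*, 62.4% for *Vcan*, 64.4% for *Bgn* and 78.0% and 64.0% for the 2 starts of *Podn*, the first of which has the GC box, against a median of 52.4% over all promoters. The 6 genes called lower thus ran from an AT-rich to a GC-rich promoter. Both stretches of *Podn* also lay inside its annotated gene in GENCODE, and that of *Prelp* overlapped the first bases of its annotated gene.

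The fall was not equal in the *Atp6ap2* iECKO libraries. Against the control mean on the log2 scale, the median over the 6 genes called lower was -0.78 in replicate 1, -1.44 in replicate 2 and -1.37 in replicate 3. Replicate 1 had the smallest fall for *Bgn*, *Ogn*, *Aspn*, *Fmod* and *Prelp*. *Vcan* was the exception, with -1.45, -1.33 and -1.44 in replicates 1 to 3. Replicate 1 was also the library that kept the most *Atp6ap2*. As this is 1 library, a relation between the fall and the level of *Atp6ap2* was not tested. *Ogn* varied the most, from -0.61 in replicate 1 to -1.87 in replicate 3.

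**Figure D3:**
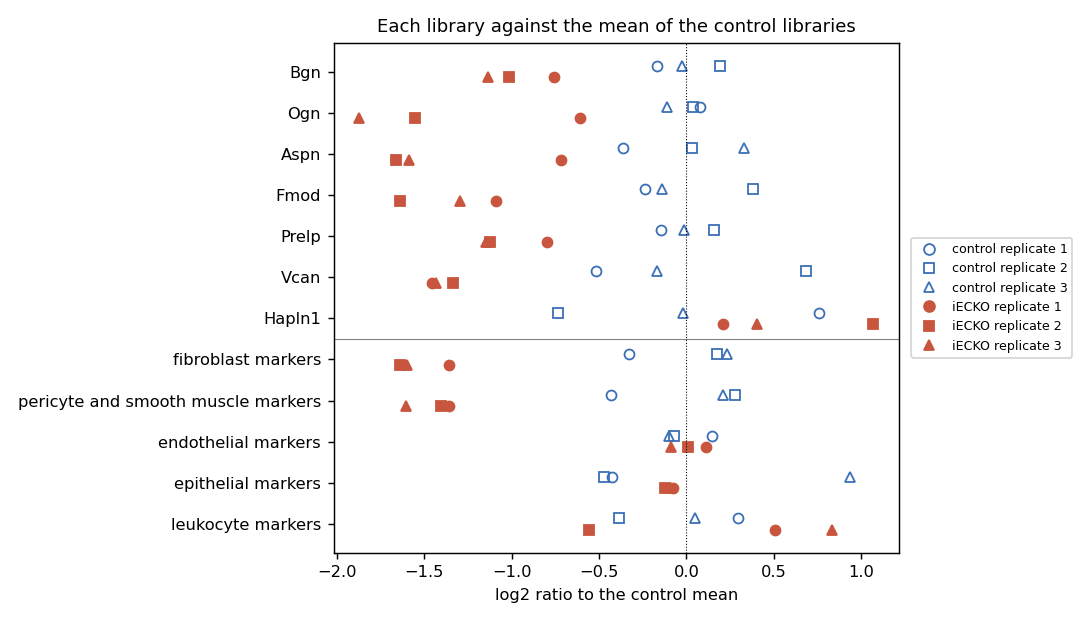
Log2 ratio of each control (open, blue) and *Atp6ap2* iECKO (filled, red) library to the mean of the control libraries, for 7 of the genes (above the line) and for the median of 5 lists of cell type markers (below it). For *Bgn*, *Ogn*, *Aspn*, *Fmod* and *Prelp* replicate 1 lies nearest to the controls, the 3 *Vcan* values lie between -1.45 and -1.33, and the fibroblast and the pericyte and smooth muscle markers lie between -1.64 and -1.36 in the *Atp6ap2* iECKO libraries.

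Most markers of the cells that are known to make these proteins were lower in the same libraries. Of 23 tested fibroblast markers, on a list that holds none of the 10 genes, 17 were called lower and 0 higher, with a median log2 fold change of -1.47, from -2.99 for *Cxcl14* (limma adjusted *P* = 0.0578) to 1.12 for *Pi16* (limma adjusted *P* = 0.0902). Their summed normalized counts were between 64347 and 91438 in control libraries and between 21971 and 33255 in *Atp6ap2* iECKO libraries. These sums rest mostly on *Mfap4* and *Npnt*, with control means of 39913 and 16835. *Cxcl14* was low, at most 42.4 in the control libraries and at most 3.71 in the *Atp6ap2* iECKO libraries. The groups did not overlap for 18 of the 23 fibroblast markers in the lower direction and for 1, *Pi16*, in the higher direction. Of all genes tested, 15% and 14.7% did not overlap in these directions. Of 19 tested pericyte and smooth muscle markers, 11 were called lower and 0 higher, with a median of -1.51, from -1.94 for *Rgs5* to -0.68 for *Myocd*, and sums between 18812 and 28366 in control and between 7687 and 9623 in *Atp6ap2* iECKO libraries. Of 20 endothelial markers only *Tek*, the angiopoietin receptor, was called (log2 fold change -0.53, limma adjusted *P* = 0.0292). The endothelial median was 0.00119, with *Emcn* the highest at 0.27, and the sums overlapped, from 371504 to 486054 and from 387538 to 444516. None of the markers on these 3 lists was at 0 in all libraries. *Acta2* and *Des*, which encode the αSMA and desmin of the immunoblot, were on the pericyte and smooth muscle list. *Acta2* had normalized counts of 659, 1420 and 1535 in the control libraries and of 269, 463 and 562 in the *Atp6ap2* iECKO libraries. *Des* had 661, 977 and 998 in the control libraries and 323, 223 and 265 in the *Atp6ap2* iECKO libraries. Against the control mean, the median of the fibroblast markers was -1.36, -1.64 and -1.60 in *Atp6ap2* iECKO replicates 1 to 3 and that of the pericyte and smooth muscle markers -1.36, -1.41 and -1.61, beside -0.78, -1.44 and -1.37 for the 6 genes, which had been chosen as those called lower. The part of the fibroblast, pericyte and smooth muscle markers in the fall of the proteoglycan genes was not tested.

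Markers of the other cell types showed no shared fall. Epithelial markers summed to between 29086 and 78114 in control libraries, with the highest in control replicate 3, and to between 36030 and 43074 in *Atp6ap2* iECKO libraries. Of the 16 tested, *Scgb1a1*, a secretory cell product, was called higher (log2 fold change 1.75, limma adjusted *P* = 0.0408) and *Krt18* was the lowest at -0.36. Leukocyte markers summed to between 9680 and 16661 and to between 7987 and 21942, and 0 of 15 were called by limma, 0 of them at an unadjusted *P* value below 0.05, from *Adgre1* at -0.46 to *Marco* at 0.89. Markers of cartilage cells, which also make fibromodulin and link protein, summed to between 484 and 868 in control and between 540 and 981 in *Atp6ap2* iECKO libraries. *Matn1* was at most 1.87 and *Snorc* was listed at 0 in every library, and *Col2a1* was at most 287, in control replicate 2. Of the 5 cartilage markers tested 0 were called by limma and 1 had an unadjusted *P* value below 0.05, from *Col9a2* at -1.26 to *Cytl1* at 0.48. Mesothelial markers summed to between 1912 and 2311 and to between 1731 and 2232. Of these *Wt1* and *Upk3b* were at most 5.53 and 7.04, and of the 5 tested only *Nkain4* was called (log2 fold change -1.93), in a range from -4.50 for *Upk1b* to 0.30 for *Cpe*. *Upk1b* was listed at 0 in *Atp6ap2* iECKO replicates 1 and 2, and its groups overlapped (limma adjusted *P* = 0.166).

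In the 4 libraries with high *Xist*, 2 of each group, the log2 fold changes of the 6 genes were -0.96 (*Bgn*), -1.26 (*Fmod*), -1.30 (*Ogn*), -0.98 (*Prelp*), -0.99 (*Aspn*) and -1.53 (*Vcan*). At this size limma called 0 of all genes tested, and the 6 genes had adjusted *P* values from 0.129 to 0.237, with 6 of the 8 that could be tested at an unadjusted *P* value below 0.05. With *Xist* presence as a covariate over all 6 libraries, the same 6 genes were called lower, with adjusted *P* values from 0.0174 to 0.0461 by limma. *Bgn* is X-linked, and its values in the libraries with low *Xist* were 11169 in control and 5619 in *Atp6ap2* iECKO, each the middle one of its group.

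The other proteoglycans and the enzymes that build and cleave them were described by lists that hold none of the 10 genes. Over 7 such lists 94 genes were tested, of which 22 were called lower (23.4%) and 1 higher (1.06%), against 4.97% and 3.28% of all genes tested. With their matrix partners, the collagens and other proteins that they bind, 118 genes were tested, of which 37 were called lower and 1 higher. These 38 calls became 24 (21 lower and 3 higher) without control replicate 2, and 14, 14 and 12 without control replicate 3, *Atp6ap2* iECKO replicate 2 and *Atp6ap2* iECKO replicate 3. The count of higher calls was itself unsteady, at 5 with 33 lower without control replicate 1. Among the heparan sulfate and cell surface proteoglycans, 5 of 19 were called lower and 0 higher. These were *Sdc2*, a syndecan (log2 fold change -1.59), *Cspg4*, the NG2 proteoglycan of pericytes (-1.52), and the glypicans *Gpc3* (-1.50), *Gpc1* (-1.34) and *Gpc4* (-1.30), with limma adjusted *P* values from 0.00567 to 0.0301. *Sdc2* had 1567, 2227 and 2250 normalized counts in the control libraries and 701, 639 and 635 in the *Atp6ap2* iECKO libraries. The most abundant of the list, the basement membrane proteoglycan genes, did not pass the threshold. *Hspg2*, which encodes perlecan, had a log2 fold change of 0.51 (95% confidence interval 0.18 to 0.85, limma adjusted *P* = 0.0721). *Agrn*, which encodes agrin, had -0.40 (-0.67 to -0.12, limma adjusted *P* = 0.0863). Every *Atp6ap2* iECKO library was above every control for *Hspg2* and below every control for *Agrn*. With the replicate number as a covariate, both passed, with limma adjusted *P* values of 0.0151 for *Hspg2* and 0.0306 for *Agrn*.

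The other small leucine-rich and hyaluronan-binding proteoglycan genes were mostly low. Of 10 other small leucine-rich genes, 4 were tested and only *Ecm2* was called, while *Tsku*, the next most abundant, had a log2 fold change of 0.02 (95% confidence interval -0.40 to 0.43). Of 6 other hyalectan and link protein genes, 3 were tested, with 0 called by limma and 0 at an unadjusted *P* value below 0.05. *Hapln3*, the only one above 100 on average, had a log2 fold change of -0.37 (95% confidence interval -1.32 to 0.59), and *Bcan* 0.09. Among the other hyalectan genes *Acan*, which encodes aggrecan, was the highest in any library, at 32.6 in control replicate 2.

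Hyaluronan is made by the *Has* synthases and bound by versican, link protein and cell surface receptors. Of 19 tested genes for hyaluronan synthesis, binding and turnover, 3 were called lower and 0 higher, with a median log2 fold change of -0.19. *Tnfaip6* (TSG-6), which moves the heavy chains of inter-α-trypsin inhibitor onto hyaluronan, fell from 671 ± 247 to 148.9 ± 54.0 (SD, n = 3 each, log2 fold change -2.14, limma adjusted *P* = 0.0138). *Itih5*, which encodes such a heavy chain, had -1.31 (limma adjusted *P* = 0.0106), and *Cd44*, the main hyaluronan receptor, -0.50 (limma adjusted *P* = 0.0475). The most abundant genes were the hyaluronidase *Tmem2*, at -0.35 (limma adjusted *P* = 0.0603), and the receptor *Lyve1*, at -0.003.

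Among the enzymes that make the sulfated chains, the calls were mostly lower. For chondroitin and dermatan sulfate, 5 of 27 tested genes were called lower (18.5%) and 1 higher (3.7%), with a median of 0.03. Of all genes tested, 4.97% were called lower and 3.28% higher. Those lower were the chain polymerase genes *Chsy3* (-1.23) and *Chpf* (-0.83), the sulfotransferase gene *Ust* (-1.12), *Ugdh* (-0.63), whose product makes the UDP-glucuronate used for these chains and for hyaluronan, and the epimerase gene *Dse* (-0.56). *Chpf2*, a relative of *Chpf*, was higher (0.55, limma adjusted *P* = 0.017). *Dse* was between 1035 and 1141 in control libraries and between 736 and 749 in *Atp6ap2* iECKO libraries. The most abundant members of the list, the sulfotransferase genes *Chst15* and *Chst11*, had log2 fold changes of 0.19 and 0.05 and were not called. For keratan sulfate, which fibromodulin carries, 2 of 8 tested genes were called lower, *Chst2* (-0.93) and *B4galt4* (-0.57), while the most abundant, *B4galt1* (-0.21) and *B3gnt2* (-0.04), were not.

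Proteases that cleave versican and other proteoglycans were also measured. Of 14 tested proteases and inhibitors, 6 were called lower and 0 higher, with a median of -0.40. The versican-cleaving or related *Adamts8* (-1.67), *Adamts15* (-1.66) and *Adamts4* (-0.94) fell, as did *Mmp2* (-1.07), *Mmp14* (-0.54) and the inhibitor gene *Timp2* (-0.42), with limma adjusted *P* values from 0.0133 to 0.0387. *Adamts1*, by far the most abundant of them at 64932 ± 8751 and 53941 ± 2981 (SD, n = 3 each), had a log2 fold change of -0.26 and was not called, nor was *Timp3* (0.42, limma adjusted *P* = 0.139). Among genes for matrix partners, the collagens, microfibril proteins and growth factors that these proteoglycans bind, 15 of 24 were called lower and 0 higher, with a median of -0.88. The largest falls were those of *Col1a1* (-1.62), *Tnc* (-1.61), *Col1a2* (-1.60), *Col3a1* (-1.56), *Col6a3* (-1.55) and *Fbln1* (-1.50). *Tnc* and *Fbln1* encode tenascin-C and fibulin-1, which bind versican. *Eln* (0.03) and *Fbln5* (-0.07), which encode elastin and its assembly factor and had the highest means over all 6 libraries, were not called. In the control libraries alone *Col3a1* (23267) and *Col1a2* (18914) had higher mean normalized counts than *Fbln5* (16503).

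**Figure D4:**
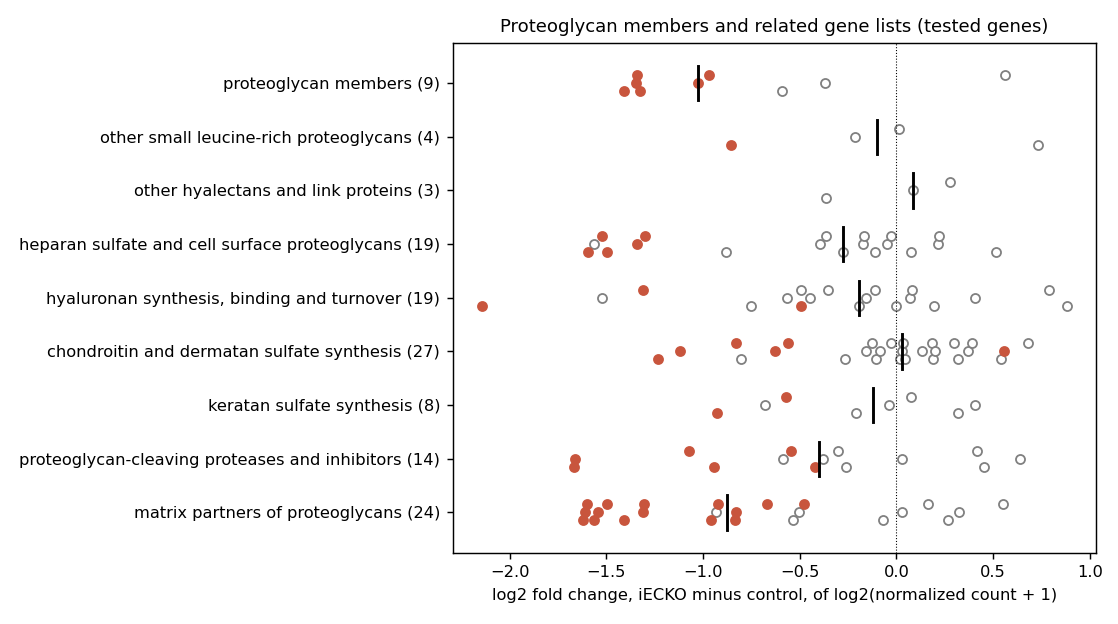
Log2 fold change (horizontal axis, *Atp6ap2* iECKO minus control, of the log2 of the normalized count plus 1) of every tested gene, by list, with the number tested in parentheses. Filled red points are genes with a limma adjusted *P* value below 0.05, open points are the others, and black bars are medians, which are -1.02 for the 9 proteoglycan genes, -0.88 for their matrix partners and between -0.40 and 0.09 for the other 7 lists.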

How the data were processed

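RNA-Seq was performed on iLECs of 3 control and 3 *Atp6ap2* iECKO samples. The authors made TruSeq v2 libraries, aligned the reads to mm10 and quantified genes with BaseSpace tools (the annotation is not given in the sources used here). The values the authors deposited are a normalized signal, estimated counts scaled per library, although the labels call them raw. They are not whole numbers, the median ratio to the geometric mean was 1.0036 in every library, and only 37.7% to 59.5% of low values lay within 2% of a step from a whole multiple. Reads could therefore not be recovered. The edgeR test foreseen for counts was not run, and precision is given by the spread of 3 libraries per group, which the study calls biological replicates.

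The log2 of the value plus 1 was tested with limma 3.58.1 (R 4.3.3) with a mean-variance trend and no covariate, for genes of at least 10 in at least 3 libraries, with Benjamini-Hochberg adjustment and a threshold of 0.05. Single ratios were compared with an exact permutation test (scipy 1.17.1). Positions and exon lengths are from GENCODE M21 of GRCm38, which matched 24490 of 24972 symbols (98.1%). Promoters are from RefSeq. The fit was tested on simulated data.

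The genes and lists were chosen with earlier results of these data known. All 10 genes are named. From each other list up to 6 falls and 4 rises past the threshold, by size, and the 2 most abundant tested genes are named, and from each marker list the lowest and highest log2 fold change, beside gene cluster neighbours and defining or 0 markers. Alternatives were other scalings, filters, pseudocounts, thresholds and variance models, the replicate number and *Xist* as covariates, the high *Xist* libraries alone and each library left out.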

Additional observations from a re-analysis of the deposited data

How the results depend on the processing

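*Bgn*, *Fmod*, *Ogn*, *Prelp*, *Aspn* and *Vcan* were lower in *Atp6ap2* iECKO iLECs under all 17 alternatives. All 6 remained below the threshold with library size or upper quartile scaling, other filters, other pseudocounts, the replicate covariate and the *Xist* covariate. Without the mean-variance trend 3 passed, with 304 genes called in all and 11 of the related lists. At an adjusted *P* value below 0.01, 0 of the 10 genes passed in limma (6 had an unadjusted *P* value below 0.05), with 90 genes and 4 of the related lists, and below 0.1 there were 1987 genes. In the high *Xist* libraries limma called 0 of the 10 genes, 0 of the related lists and 0 of all genes, where 6, 49 and 2196 had an unadjusted *P* value below 0.05. The *Xist* covariate gave 767 genes. With each library left out in turn, between 2 and 6 of the 10 genes, between 12 and 38 of the related lists and between 206 and 983 genes were called, and the median log2 fold change of the tested proteoglycan genes was between -1.26 and -0.96. It was -1.32 with a filter of 50 in 3 libraries, which leaves out *Dcn* and *Podn*. *Podn* changed sign without control replicate 2, at 0.065, in a range from -0.97. The causes were not tested.

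Libraries of the groups share replicate numbers, but the methods name no pairing, so the numbers were not taken as pairs in the main fit. Correlations between the deviations of same-numbered libraries were 0.25, 0.11 and 0.08. Those between libraries of different numbers ran from -0.21 to 0.10. Only control replicate 3 correlated better with another number, that of *Atp6ap2* iECKO replicate 2 (0.10). The correlations do not settle whether the numbers mark pairs. With the replicate block, 6 of the 10 genes, 46 of the related lists (41 lower and 5 higher) and 1508 genes were called. *Hapln1* remained above the threshold in all 17 alternatives. Values near 10 limit what can be said of *Dcn*, *Lum* and *Podn*.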

Other observations

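The genes for hyaluronan synthases were chosen after their values were seen. *Has2*, which encodes the main hyaluronan synthase of developing tissues, had normalized counts of 1844, 1304 and 774 in the control libraries and of 2922, 1931 and 2073 in the *Atp6ap2* iECKO libraries. Every *Atp6ap2* iECKO library was above every control library, as were 14.7% of all genes tested. The log2 fold change was 0.88 (standard error 0.30, limma adjusted *P* = 0.117), which does not pass the threshold. With the replicate number as a covariate, the limma adjusted *P* value of *Has2* was 0.0251, so its status depended on the design. *Has1* and *Has3*, which encode the other synthases, were lower in level, between 20.3 and 152 over all libraries, with log2 fold changes of -0.50 and -0.45 (limma adjusted *P* = 0.647 and 0.342).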
